A study of Mus musculus with 33 samples.

Results

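A set of 10 genes that act as brakes on mitogen-activated protein kinase (MAPK) signalling was followed through the reprogramming of mouse embryonic fibroblasts: Dusp1, Dusp4, Dusp5, Dusp6, Dusp7, Dusp10, Spry1, Spry2, Spry4 and Spred1. They were taken by gene symbol from a table of 37973 genes, and all 10 were found and passed the filter on low values in every comparison. In this pathway a growth factor bound to its receptor activates Ras, which passes the signal through Raf and MEK to the kinase ERK, and ERK switches on, among other genes, its own inhibitors. Sprouty and Spred proteins act near the receptor and Ras, and dual-specificity phosphatases (the Dusp genes) remove phosphate from the MAP kinases, so the levels of these genes are widely used as a readout of the pathway. In mouse embryonic stem cells FGF4 and ERK signalling is known to drive the exit from naive pluripotency.

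The cells were primary fibroblasts from embryos of 14 to 15 days post coitum, of the genotype Col1a1-OSKM+/-; Rosa26-rtTA+/-; Oct4-GFP+/-. Doxycycline (1 ug/ml) turns on the OSKM cassette (Pou5f1, Sox2, Klf4 and Myc), and the GFP reporter marks cells that use the endogenous Pou5f1 locus. All cells were transduced with lentivirus, to overexpress Dppa2 and Dppa4 (17 libraries) or as the overexpression control (13 libraries), both arms carrying the alleles above, and were grown in serum medium with LIF. PolyA RNA was sequenced from cells sorted on days 2, 4, 8, 11 or 14 for the fibroblast surface marker Thy1, the intermediate marker SSEA1 and, on later days, GFP: 8 Thy1+SSEA1- libraries, 9 Thy1-SSEA1-, 2 Thy1+SSEA1+ (both Dppa2/4), 6 Thy1-SSEA1+ and 5 GFP+. A further pair of libraries, 1 per arm, is titled rtTA-MEF, day 2, with a genotype that lacks the OSKM cassette. Each arm, day and gate holds 1 library, so the comparisons pair libraries of the same day and gate, or of the same arm and day. Their p-values measure how alike these pairs differed, and not the spread between separate cultures.

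The 30 OSKM libraries had an implied depth of about 21400000 to 42700000 fragments, and the rtTA-MEF pair about 14100000 to 16200000. The summed level of 7 pluripotency markers was 2987 to 5466 FPKM in GFP+ libraries, 238 to 1834 in Thy1-SSEA1+ libraries and at most 192.5 in the SSEA1- gates. Of 4 immune markers Ptprc reached at most 0.155 FPKM and Adgre1 1.00 FPKM over all 32 libraries, while Cd14 reached 3.76 FPKM and Cd68 ranged from 3.11 to 82.6 FPKM. Of 4 endothelial markers Cdh5 reached at most 0.148 FPKM, while Cldn5 reached 16.4, Tek 33.0 and Pecam1 65.0 FPKM. Some libraries go against their labels. The Dppa2/4 library of day 4, Thy1+SSEA1-, had 0.354 FPKM of Dppa2, against 92.4 and 111 FPKM in the other Dppa2/4 libraries of that day, and it is called the doubted day 4 library. Differences of the feedback genes that use it are also given without it. In the rtTA-MEF pair Pou5f1 was at 1116 FPKM in the Dppa2/4 library and 122 FPKM in the control library, although the genotype has no OSKM cassette; the columns given to this pair name only arm and day, and no comparison uses them. The GFP+ control library of day 11 is described under a different gate than its title gives, but its Nanog of 323 FPKM was that of GFP+ cells, and it was used as titled. On day 2 the Thy1-SSEA1- libraries had 229.6 (Dppa2/4) and 164.0 FPKM (control) of Thy1. Their Thy1+SSEA1- partners had 194.8 and 240.7 FPKM, and the Thy1-SSEA1- libraries of later days 39.5 to 77.8 FPKM. These day 2 libraries were used as titled, both between the SSEA1- gates and in the changes per day.

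Of the 10 genes, 8 had an entry in the RefSeq promoter table (GRCm38.p6), and the 250 bases before the start are shown for 4 genes whose levels behaved differently: Dusp5 and Dusp6, lower in GFP+ cells, Spry2, higher there, and Dusp1, with no common direction there and high on day 14. The stretches are chr19:53528895-53529144 (plus strand) for Dusp5, chr17:26508473-26508722 (minus strand) for Dusp1, chr10:99262981-99263230 (plus strand) for Dusp6 and chr14:105896820-105897069 (minus strand) for Spry2. Capitals mark the CArG box, the serum response factor motif, in Dusp5 and the cyclic AMP response element TGACGTCA in Dusp1.
Dusp5: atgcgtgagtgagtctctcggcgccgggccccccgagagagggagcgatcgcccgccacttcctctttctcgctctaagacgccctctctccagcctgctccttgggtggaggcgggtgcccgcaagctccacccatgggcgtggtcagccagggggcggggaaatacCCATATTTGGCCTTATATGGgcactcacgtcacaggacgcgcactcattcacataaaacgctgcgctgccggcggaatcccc
Dusp1: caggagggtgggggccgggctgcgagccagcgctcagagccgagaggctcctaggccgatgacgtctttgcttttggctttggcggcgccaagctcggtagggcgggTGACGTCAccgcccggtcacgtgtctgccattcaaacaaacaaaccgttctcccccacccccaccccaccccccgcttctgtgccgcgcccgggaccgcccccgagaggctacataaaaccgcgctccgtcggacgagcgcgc
Dusp6: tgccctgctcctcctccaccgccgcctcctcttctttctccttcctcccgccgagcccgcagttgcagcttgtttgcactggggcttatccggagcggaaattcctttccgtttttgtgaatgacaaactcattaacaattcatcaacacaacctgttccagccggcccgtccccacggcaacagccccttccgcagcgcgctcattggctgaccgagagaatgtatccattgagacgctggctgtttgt
Spry2: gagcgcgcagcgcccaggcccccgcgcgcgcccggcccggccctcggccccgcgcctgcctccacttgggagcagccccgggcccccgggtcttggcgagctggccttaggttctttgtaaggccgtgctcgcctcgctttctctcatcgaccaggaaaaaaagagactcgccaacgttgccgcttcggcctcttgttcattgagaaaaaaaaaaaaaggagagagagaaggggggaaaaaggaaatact
The CArG box was found 2 times in Dusp5, at adjoining positions 82 to 73 and 72 to 63 bases before the start, and the element TGACGTCA 1 time in Dusp1, 143 to 136 bases before it. Both strands were searched, and 1.47% of all 32851 promoter stretches of this length held a CArG box and 1.55% held TGACGTCA. None of the 8 stretches held the ETS motif CCGGAA (12.0% of all stretches) or the AP-1 motif TGANTCA (6.75%). The GC box GGGCGG, in 32.7% of all stretches, was found in those of Dusp1, Dusp5, Dusp10, Spry1 and Spred1, and in Dusp1 it did not overlap the TGACGTCA element.

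The 10 genes spanned a wide range of levels in the OSKM libraries. FPKM is scaled to transcript length, so levels can be ordered between genes: over the 30 libraries the median was 41.3 FPKM for Dusp1, 37.8 for Spry2, 32.2 for Dusp6, 22.8 for Spred1, 16.0 for Dusp5, 13.8 for Dusp4, 13.7 for Spry4, 10.2 for Dusp7, 9.56 for Spry1 and 1.90 for Dusp10. The ranges of all neighbours in that order overlapped. Dusp10, a phosphatase that acts mainly on JNK and p38, varied most in relative terms, with 0.202 to 8.78 FPKM, and Dusp7, an ERK phosphatase of the cytoplasm, least, with 3.85 to 16.9 FPKM. Dusp1 ranged over 5.15 to 187 FPKM, Dusp6 over 5.55 to 103 FPKM and Spry2 over 7.51 to 80.9 FPKM.

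**Figure D1:**
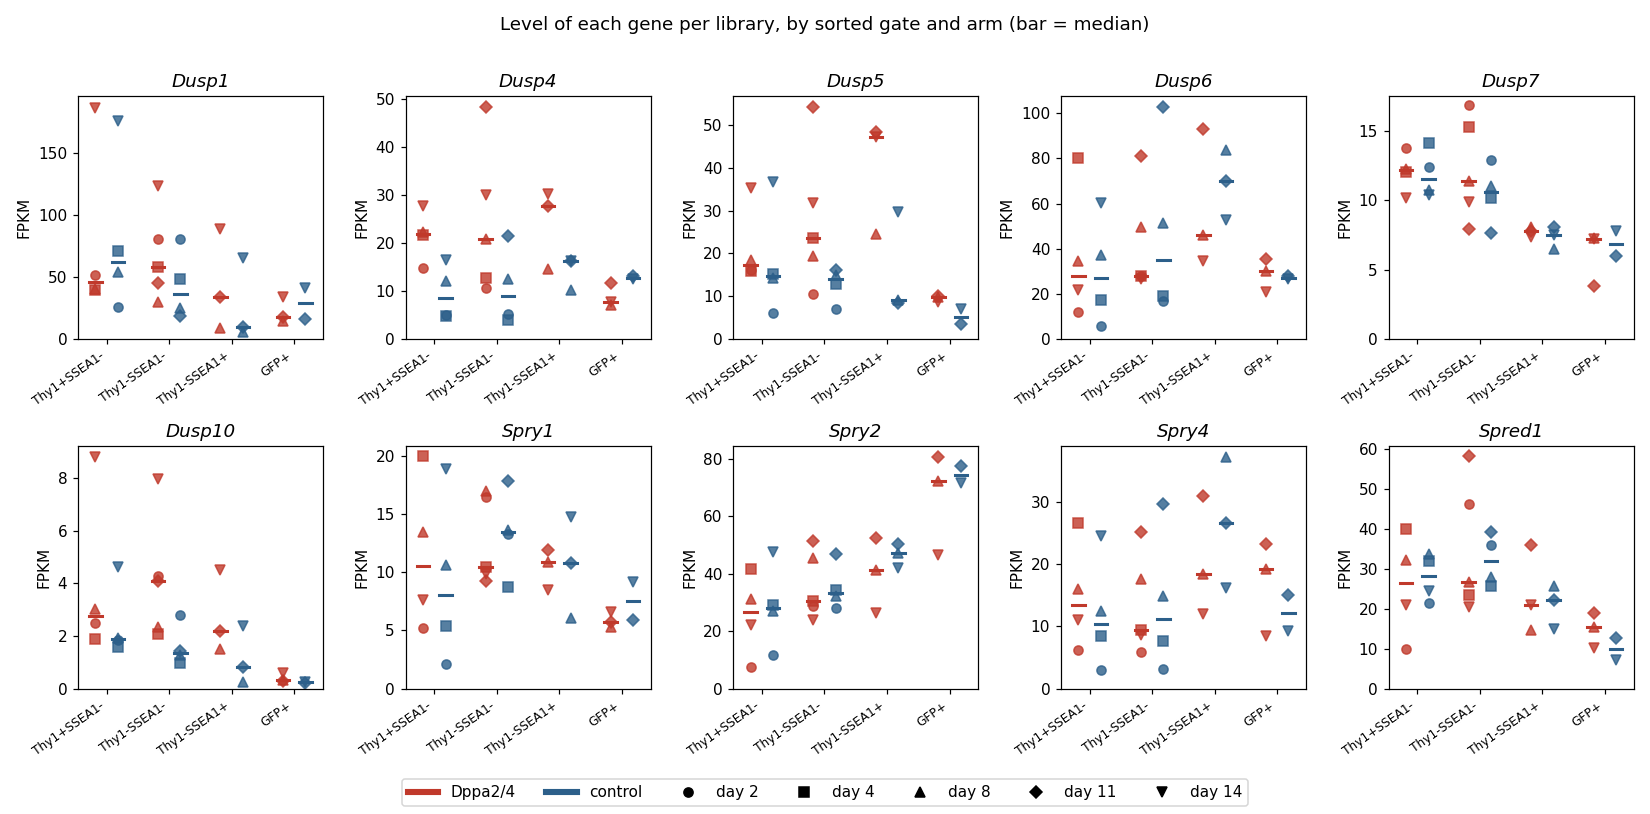
Level of the 10 genes (FPKM, y axis of each panel from 0) by sorted gate, with Dppa2/4 libraries (red) left of control libraries (blue), 1 point per library, its shape giving the day, and a bar at the median; the Thy1+SSEA1+ and rtTA-MEF libraries are not drawn. Spry2 has its highest medians in GFP+ cells, where Dusp10 is at most 0.589 FPKM, and Dusp1 is highest on day 14 in each gate and arm that has that day.

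At the step from Thy1-SSEA1+ to GFP+ cells, the last one sorted, Spry2 moved against most of the other genes. Spry2 was higher in GFP+ cells in 5 of 5 pairs of the same arm and day, while Dusp4, Dusp5, Dusp6, Dusp10 and Spry1 were lower in 5 of 5 and Spry4 and Spred1 in 4 of 5. In the fit across all genes 1 of the 10 passed the threshold upward and 7 downward, where 45.4% of 15347 genes tested passed it (19.5% upward and 25.9% downward). The 10 genes were chosen by symbol with the levels and differences of these same libraries in view, and which values weighed most is not recorded, so here and below their calls are a description and nothing is read from how many were called. In bulk RNA, fewer cells that express a gene and less RNA of it per cell cannot be told apart.

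Spry2, an inhibitor at the receptor and Ras level, had 72.5, 80.9 and 46.4 FPKM in Dppa2/4 GFP+ cells of days 8, 11 and 14 and 77.5 and 71.6 FPKM in control GFP+ cells of days 11 and 14. The Thy1-SSEA1+ cells of the same arms and days had 41.2, 52.4 and 26.3 FPKM (Dppa2/4) and 50.5 and 41.9 FPKM (control). Spry2 was higher in every pair, and the groups overlapped only through the Dppa2/4 pair of day 14, which was low in both gates. The difference was 0.72 ± 0.07 (SE, 5 pairs) on the log2(FPKM + 1) scale, with single pairs from 0.61 to 0.80.

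Dusp6, the ERK phosphatase of the cytoplasm, had 30.1, 35.6 and 20.6 FPKM in Dppa2/4 GFP+ cells and 27.8 and 26.4 FPKM in control GFP+ cells. In Thy1-SSEA1+ cells it had 46.2, 93.1 and 34.6 FPKM (Dppa2/4) and 70.2 and 52.6 FPKM (control). It fell by 0.99 ± 0.14 on the log2 scale, and the GFP+ values lay closer together than the SSEA1+ values. Spry4, the gene whose levels followed Dusp6 most closely, moved less: it had 19.2, 23.3 and 8.53 FPKM in Dppa2/4 GFP+ cells and 15.1 and 9.26 FPKM in control GFP+ cells, against 18.5, 31.0 and 12.0 FPKM (Dppa2/4) and 26.6 and 16.2 FPKM (control) in Thy1-SSEA1+ cells. The difference of Spry4 was -0.46 ± 0.14, it was slightly higher in the Dppa2/4 pair of day 8, and its call was lost without any one of 4 of the 5 pairs (adjusted p = 0.0795 to 0.106, limma), with no filter (0.0615), with quantile normalization (0.0575) and with no block (0.315).

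Dusp5, the ERK phosphatase of the nucleus, showed the largest fall of the 10 genes on the log2(FPKM + 1) scale, where that of Dusp10 came next. It had 9.84, 9.92 and 8.69 FPKM in Dppa2/4 GFP+ cells and 3.39 and 6.95 FPKM in control GFP+ cells, against 24.5, 48.5 and 47.2 FPKM (Dppa2/4) and 8.37 and 29.7 FPKM (control) in Thy1-SSEA1+ cells, a difference of -1.76 ± 0.21. The groups overlapped only through the control Thy1-SSEA1+ library of day 11. Dusp10 was 0.202 to 0.589 FPKM in the 5 GFP+ libraries and 0.802 to 4.51 FPKM in their 5 Thy1-SSEA1+ partners, with no overlap and a difference of -1.20 ± 0.20, which the added 1 makes smaller than the ratio of the levels at such low values. With 0.1 added instead, Dusp10 had the larger fall (-2.31, against -1.88 for Dusp5).

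Dusp4, a nuclear phosphatase of ERK, JNK and p38, had 7.08, 11.6 and 7.59 FPKM in Dppa2/4 GFP+ cells and 13.1 and 12.5 FPKM in control GFP+ cells, against 14.6, 27.8 and 30.1 FPKM (Dppa2/4) and 16.2 FPKM on both days (control) in Thy1-SSEA1+ cells. The groups did not overlap, and the difference was -0.93 ± 0.24. It was -0.95, -1.19 and -1.86 in the Dppa2/4 pairs and -0.29 and -0.35 in the control pairs, and the difference between the arms was not tested. The call was lost without the Dppa2/4 pair of day 8 (adjusted p = 0.0536) or day 11 (0.0726).

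Spry1 fell by 0.72 ± 0.12, with 5.32 to 9.18 FPKM in GFP+ cells and 8.49 to 14.8 FPKM in Thy1-SSEA1+ cells. Spred1, which brings the Ras inhibitor neurofibromin to the membrane, had 7.12 to 18.9 FPKM in GFP+ cells and 14.8 to 36.0 FPKM in Thy1-SSEA1+ cells, a difference of -0.71 ± 0.17 that lost its call without the pair of control day 14, Dppa2/4 day 11 or Dppa2/4 day 14 (adjusted p = 0.0517 to 0.0601) and with no block (0.0954). Dusp1, a nuclear phosphatase of all 3 kinds of MAP kinase, had no common direction: it was higher in GFP+ cells in the pairs of control day 11 (16.3 against 9.25 FPKM) and Dppa2/4 day 8 (14.5 against 9.06 FPKM) and lower in the other pairs. Dusp7 was 3.85 to 7.76 FPKM in GFP+ cells and 7.34 to 8.09 FPKM in Thy1-SSEA1+ cells and was not called.

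**Figure D2:**
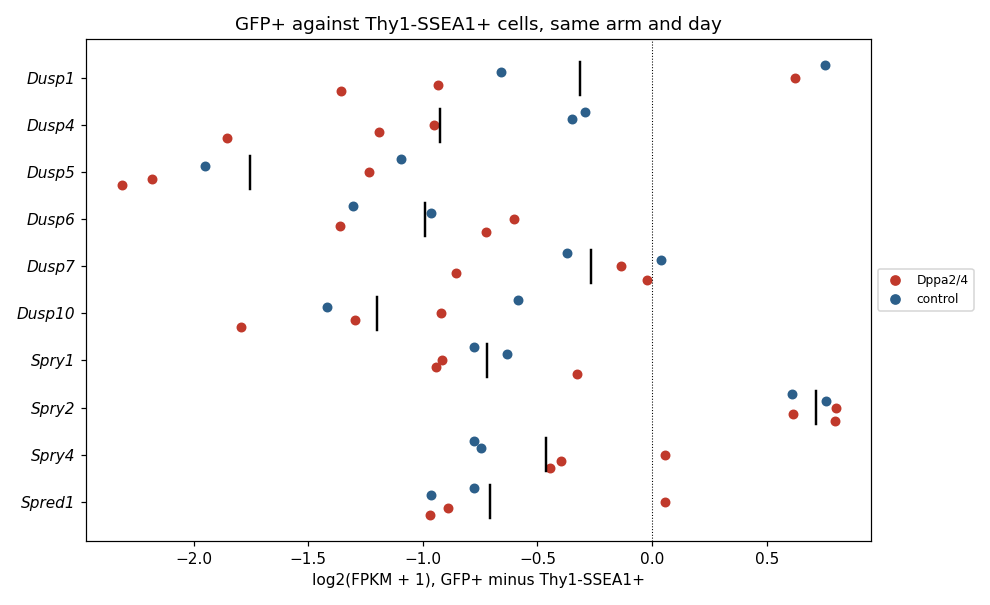
Difference in log2(FPKM + 1), GFP+ minus Thy1-SSEA1+ cells (x axis), for each of the 10 genes (rows), with 1 point per pair of the same arm and day (Dppa2/4 red, control blue) and a black bar at the mean of the 5 pairs. All points of Spry2 lie right of 0 and all points of Dusp4, Dusp5, Dusp6, Dusp10 and Spry1 lie left of it.

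Among 104 other genes of the pathway, 95 were tested in this comparison, and 10 were higher in GFP+ cells and 44 lower, 56.8% in all, against the 45.4% of all genes. The lists of these genes were also chosen with earlier results of these data known. Here and below their counts, shares and medians are therefore a description, and nothing is read from how many were called. Of the growth factor ligands 2 of 17 tested rose and 9 fell. Fgf4, the ligand known from embryonic stem cells, rose to 145 FPKM in GFP+ cells, against 39.6 FPKM in Thy1-SSEA1+ cells (difference 1.99 ± 0.20, 5 of 5 pairs, adjusted p = 0.00128, limma). The neuregulin Nrg1 fell to 1.18 FPKM, against 6.16 FPKM (-1.67 ± 0.20, adjusted p = 0.0019), and the platelet-derived growth factor gene Pdgfc to 1.25 FPKM, against 5.68 FPKM (-1.48 ± 0.23, adjusted p = 0.00407).

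Receptors mostly fell, 8 of 12 tested against 1 that rose. The EGF receptor gene Egfr averaged 2.29 FPKM in GFP+ cells and 13.1 FPKM in Thy1-SSEA1+ cells (-2.05 ± 0.29, adjusted p = 0.00289), and the FGF receptor gene Fgfr1 averaged 26.7 FPKM in GFP+ cells and 85.4 FPKM in Thy1-SSEA1+ cells (-1.67 ± 0.14, adjusted p = 0.00104). The hepatocyte growth factor receptor gene Met averaged 1.41 FPKM in GFP+ cells and 7.22 FPKM in Thy1-SSEA1+ cells. Fewer genes of the Ras to ERK cascade itself passed: 2 of 18 rose and 3 fell, namely the adaptor gene Shc1 (-0.79), the Ras exchange factor gene Sos2 (-0.76) and the phosphatase gene Ptpn11 (-0.45).

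Of the ERK-responsive genes 2 of 14 tested rose and 9 fell. The membrane protein gene Emp1 averaged 43.6 FPKM in GFP+ cells and 394.9 FPKM in Thy1-SSEA1+ cells (-3.23 ± 0.27, adjusted p = 0.00104), cyclin D1 (Ccnd1) 14.4 FPKM in GFP+ and 68.7 FPKM in Thy1-SSEA1+ cells (-2.15 ± 0.13, adjusted p = 0.000769) and Phlda1 5.23 FPKM in GFP+ and 23.4 FPKM in Thy1-SSEA1+ cells (-2.02 ± 0.13, adjusted p = 0.000769). Of further family members 1 of 8 rose and 5 fell, among them Dusp14 with 5.60 FPKM in GFP+ cells and 34.1 FPKM in Thy1-SSEA1+ cells (-2.39 ± 0.14, adjusted p = 0.000687), and of other negative regulators 1 of 14 rose and 7 fell, among them the adaptor gene Dok2 (-2.22 ± 0.27). Of the JNK and p38 cascades 1 of 12 rose (the p38 kinase kinase gene Map2k6, 0.90) and 3 fell. The median difference was -0.71 over the 10 feedback genes, -1.24 over the ERK-responsive genes, -1.03 over the receptors and -0.03 over the Ras to ERK cascade, against -0.06 over all genes tested.

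Cell type markers moved with this step. All 8 fibroblast markers fell, with a summed level of 54.7 to 163 FPKM in GFP+ libraries and 198.5 to 1190 FPKM in their Thy1-SSEA1+ partners. Of 5 epithelial markers 4 fell (231 to 283 against 326.4 to 786 FPKM), and all 7 pluripotency markers rose. Of the 2 immune markers tested Cd14 fell, and of the 3 endothelial markers tested Pecam1 rose (2.56) and Tek fell (-1.81). Their part in the differences of the feedback genes was not tested.

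Across arms, Dusp4, Dusp5 and Dusp10 were higher with Dppa2/4, and the Sprouty genes and Dusp6 had no common direction. Over 13 strata of day and gate, 3 of the 10 genes passed the threshold upward and 0 downward, where 23.4% of 16835 genes tested passed it, 15.6% upward and 7.75% downward. All 3 calls were lost in a fit without day and gate as a block, and the same 3 genes passed without the stratum of the doubted day 4 library.

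Dusp10 was higher with Dppa2/4 in 13 of 13 strata. It had 8.78 FPKM in Dppa2/4 and 4.61 FPKM in control Thy1+SSEA1- cells of day 14, and 0.295 FPKM in Dppa2/4 and 0.202 FPKM in control GFP+ cells of day 11, the smallest of the differences (0.11). The mean was 2.92 FPKM with Dppa2/4 and 1.56 FPKM in control (0.57 ± 0.09, and 0.60 without the doubted library's stratum).

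Dusp5 was higher in 12 of 13 strata (0.85 ± 0.18, and 0.92 without the doubted library's stratum), and most so in Thy1-SSEA1+ cells of day 11, with 48.5 FPKM in Dppa2/4 and 8.37 FPKM in control cells. In Thy1-SSEA1+ cells it had 24.5, 48.5 and 47.2 FPKM with Dppa2/4 on days 8, 11 and 14 and 9.18, 8.37 and 29.7 FPKM in control. In Thy1+SSEA1- cells of day 14 the arms were alike, with 35.2 FPKM in Dppa2/4 and 36.7 FPKM in control cells. Within the SSEA1+ and GFP+ gates, where 16.1% of genes passed, Dusp5 averaged 27.8 FPKM with Dppa2/4 and 11.5 FPKM in control (1.20 ± 0.28, 5 of 5 strata) and Dusp10 differed by 0.59 ± 0.15. The call of Dusp5 was lost without day 11 Thy1-SSEA1+ (adjusted p = 0.0828, limma), and that of Dusp10 without any one of the 3 Thy1-SSEA1+ strata (0.0517 to 0.0998).

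Dusp4 was higher with Dppa2/4 in 11 of 13 strata (0.80 ± 0.17, and 0.70 without the doubted library's stratum). In the SSEA1- gates, where 14.5% of genes passed, it was higher in 8 of 8 strata, with a mean of 22.3 FPKM with Dppa2/4 and 10.2 FPKM in control (1.13 ± 0.17), and Dusp10 was the other gene called (0.56 ± 0.12). Without the stratum of the doubted day 4 library the Dusp4 difference in these gates was 1.02 and that of Dusp10 0.61. In Thy1+SSEA1- cells Dusp4 had 14.7, 21.6, 22.2 and 27.7 FPKM with Dppa2/4 on days 2, 4, 8 and 14, the day 4 value being that of the doubted library, and 4.93, 4.81, 12.1 and 16.5 FPKM in control. In GFP+ cells it had 11.6 and 7.59 FPKM with Dppa2/4 on days 11 and 14 and 13.1 and 12.5 FPKM in control, so both GFP+ strata went the other way. Dppa2 itself was alike in both arms of these strata, with 61.55 and 53.97 FPKM in the Dppa2/4 libraries and 66.09 and 45.45 FPKM in control. The Dppa2/4 effect in the SSEA1+ and GFP+ gates together minus that in the SSEA1- gates was -0.88 ± 0.28 for Dusp4 (-0.76 without the doubted library's stratum) and was not called with or without it. For this difference 0 of the 10 genes and 1.02% of all genes passed.

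**Figure D3:**
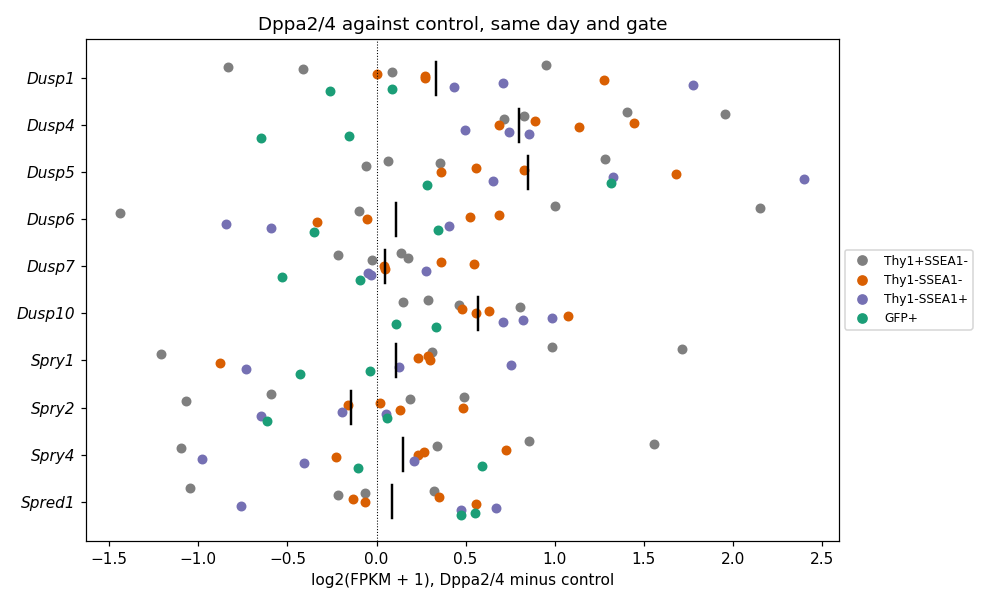
Difference in log2(FPKM + 1), Dppa2/4 minus control (x axis), for each of the 10 genes (rows), with 1 point per stratum of day and gate, coloured by gate, and a black bar at the mean of the 13 strata. All points of Dusp10 lie right of 0, the 2 GFP+ points of Dusp4 lie left of it, and Dusp6 spreads from -1.44 to 2.15.

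The other 7 genes did not pass in the comparison of the arms. Dusp6 averaged 43.4 FPKM with Dppa2/4 and 43.9 FPKM in control, and its strata ran from 2.15 in Thy1+SSEA1- cells of day 4, with 80.2 FPKM in the doubted Dppa2/4 library and 17.3 FPKM in control, to -1.44 in the same gate on day 14, with 21.6 FPKM in Dppa2/4 and 60.3 FPKM in control. Its mean difference was 0.11 ± 0.23 with that library's stratum and -0.06 without it. The mean difference was 0.15 ± 0.19 for Spry4 (0.03 without it), 0.11 ± 0.21 for Spry1 (-0.02 without it) and 0.09 ± 0.14 for Spred1 (0.07 without it). Spry2 (-0.14 ± 0.12, and -0.19 without it), Dusp7 (0.05 ± 0.08, and 0.07 without it) and Dusp1 (0.34 ± 0.18, higher in 10 of 13 strata, and 0.43 without it) were not called either.

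Of the 104 other pathway genes, 99 were tested between the arms, and 21 were higher and 5 lower with Dppa2/4. That is 26.3%, near the 23.4% of all genes, so the genes below are given as a description. Without the stratum of the doubted day 4 library 24 of these 26 kept their call, the exceptions being Rasa1 and Mapk13. Ligands of the EGF receptor were among them: Areg averaged 7.87 FPKM with Dppa2/4 and 0.955 FPKM in control (1.47 ± 0.33, 12 of 13 strata, adjusted p = 0.00631, limma), and Hbegf averaged 36.1 FPKM with Dppa2/4 and 13.7 FPKM in control (1.09 ± 0.24, 13 of 13 strata, adjusted p = 0.00606). Fgf18 fell to 1.36 FPKM with Dppa2/4, against 4.07 FPKM in control (-1.01 ± 0.19, 0 of 13 strata higher, adjusted p = 0.00275). Of 12 receptors Fgfr3 rose (0.75 ± 0.17) and Pdgfra, the fibroblast receptor for platelet-derived growth factor, fell (-0.69 ± 0.22).

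Of 16 ERK-responsive genes 4 rose and 0 fell, with Epha2 at 18.6 FPKM with Dppa2/4 and 9.73 FPKM in control (1.02 ± 0.17, 13 of 13 strata, adjusted p = 0.00157) and Phlda1 at 25.6 FPKM with Dppa2/4 and 12.3 FPKM in control (0.95 ± 0.14, 13 of 13, adjusted p = 0.000877). Ier3 differed by 0.98 ± 0.25. Of 9 further Dusp, Spry and Spred genes tested 3 rose and 0 fell: Dusp9, an ERK phosphatase, averaged 13.9 FPKM with Dppa2/4 and 6.82 FPKM in control (1.29 ± 0.42, 10 of 13 strata, adjusted p = 0.0378), and Dusp2 and Dusp8 averaged at most 1.16 FPKM in either arm. In the SSEA1- gates Dusp9 averaged 13.3 FPKM with Dppa2/4 and 1.12 FPKM in control (2.15 ± 0.40). In the SSEA1+ and GFP+ gates Dusp9 was not called, nor was the difference between these gate classes. Of 14 other negative regulators 2 rose and 1 fell, with Dok2 at 26.2 FPKM with Dppa2/4 and 4.12 FPKM in control (2.48 ± 0.34, 13 of 13, adjusted p = 0.000663). Of the Ras to ERK cascade 2 of 18 rose (Sos1 and Sos2), and of the JNK and p38 cascades 5 of 12 rose, led by Map3k5 (0.85 ± 0.18), and 1 fell. The median difference was 0.13 over the 10 feedback genes and 0.03 over all genes tested.

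Of 5 epithelial markers 4 also rose with Dppa2/4, and of 8 fibroblast markers 2 fell. Both immune markers tested rose, Cd14 (0.50) and Cd68 (0.54, a call lost without the doubted library's stratum), and of 3 endothelial markers tested Cldn5 rose (1.84) and Tek fell (-0.74). In the SSEA1+ and GFP+ gates 4 of 7 pluripotency markers fell (median of the 7, -1.02), with a summed level in Thy1-SSEA1+ cells of 238 to 883 FPKM with Dppa2/4 and 788 to 1834 FPKM in control. In Thy1+SSEA1- cells the epithelial markers summed to 49.8 (the doubted library) to 306 FPKM with Dppa2/4 and 11.9 to 56.3 FPKM in control. In Thy1-SSEA1- cells, on the days that both arms have, they summed to 12.8 to 283.6 FPKM with Dppa2/4 and 4.86 to 127 FPKM in control. Their part in the differences of Dusp4, Dusp5 and Dusp10 was not tested.

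In Thy1-SSEA1- against Thy1+SSEA1- cells, over 7 pairs of arm and day, 0 of the 10 genes passed, where 0.0259% of genes did (4 of 15473). Spry1 (0.63 ± 0.32) and Spry2 (0.52 ± 0.25) were higher in Thy1-SSEA1- cells in 6 of 7 pairs each, with 0.88 and 0.68 without the doubted day 4 library's pair, and 0 of the 10 passed without it, where 0.00652% of genes did. In Thy1-SSEA1+ against Thy1-SSEA1- cells, over 5 pairs, 2 of the 10 passed, both downward, where 21.9% of genes passed and 12.4% downward. Of these 5 Thy1-SSEA1+ libraries 4 also enter the comparison with GFP+ cells.

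Dusp1 had 9.06, 34.1 and 88.8 FPKM in Dppa2/4 Thy1-SSEA1+ cells of days 8, 11 and 14 and 5.15 and 9.25 FPKM in control ones of days 8 and 11, against 30.0, 45.5 and 124 FPKM (Dppa2/4) and 24.7 and 18.2 FPKM (control) in Thy1-SSEA1- cells. It was lower in 5 of 5 pairs (-1.10 ± 0.27). Dusp10 was lower in 5 of 5 pairs as well (-0.61 ± 0.14), with 0.264 to 4.51 FPKM in Thy1-SSEA1+ and 1.26 to 7.96 FPKM in Thy1-SSEA1- cells. Both calls were lost without the pair of control day 8, control day 11 or Dppa2/4 day 8 (adjusted p = 0.0619 to 0.0917), with no filter on low values (0.0733 for Dusp1 and 0.0646 for Dusp10) and with no block (0.396 and 0.459), and that of Dusp10 also without Dppa2/4 day 11 (0.0577). Dusp6, Spry2 and Spry4, by contrast, had positive differences that did not pass (0.13 ± 0.19, 0.13 ± 0.13 and 0.38 ± 0.21). Of the other pathway genes 7 of 93 rose in Thy1-SSEA1+ cells and 22 fell (31.2% in all, against 21.9% of all genes), 10 of them ligands, such as Fgf7 with 2.78 FPKM in Thy1-SSEA1+ and 20.4 FPKM in Thy1-SSEA1- cells (-2.37 ± 0.15, adjusted p = 0.00402, limma). Erbb3 rose to 11.5 FPKM in Thy1-SSEA1+ cells, against 3.71 FPKM in Thy1-SSEA1- cells (1.39 ± 0.15, adjusted p = 0.00493). All 8 fibroblast markers fell, and all 7 pluripotency markers, 3 of 5 epithelial markers and 1 of 3 endothelial markers tested rose between these gates, and their part was not tested.

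In the 2 pairs that hold Thy1+SSEA1+ cells, both Dppa2/4, day 2 gave like values: Dusp6 had 11.1 FPKM in Thy1+SSEA1+ and 12.1 FPKM in Thy1+SSEA1- cells. On day 4 it had 19.3 FPKM in Thy1+SSEA1+ cells and 80.2 FPKM in the doubted Thy1+SSEA1- library, and Spry1, Spry2, Spry4 and Spred1 were also highest of their gate and arm in that library, at 20.0, 41.6, 26.7 and 40.1 FPKM. In the rtTA-MEF pair, whose labels disagree and whose columns in the table name only the arm and day 2, Spry2 had 5.18 FPKM in the Dppa2/4 and 18.5 FPKM in the control library, and Spry4 had 12.6 FPKM in the Dppa2/4 and 4.45 FPKM in the control library. Dusp6 had 17.5 FPKM in the Dppa2/4 and 17.2 FPKM in the control library.

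Over time, Dusp4, Dusp6 and Spry4 were highest on day 11 in Thy1-SSEA1- cells of both arms. Dusp6 had 27.8, 27.7, 49.4, 81.3 and 26.4 FPKM with Dppa2/4 on days 2, 4, 8, 11 and 14 and 16.9, 18.9, 51.3 and 103 FPKM in control on days 2, 4, 8 and 11. Spry4 had 5.94, 9.41, 17.7, 25.2 and 8.68 FPKM with Dppa2/4 and 3.19, 7.65, 14.9 and 29.7 FPKM in control. Both stood lower on day 14, which only the Dppa2/4 arm has in this gate. Dusp4 had 10.6, 12.7, 20.7, 48.3 and 29.9 FPKM with Dppa2/4 and 5.23, 4.02, 12.5 and 21.4 FPKM in control, and its change of 0.18 ± 0.03 per day was the only one of the 10 to pass, where 2.77% of genes did. That call was lost without any one of 5 of the 9 libraries. When the Dppa2/4 library of day 14 was left out, 3 genes passed, Dusp4, Dusp6 (0.24 per day) and Spry4 (0.26 per day), where 1.63% of all genes did.

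In Thy1+SSEA1- cells 0 of the 10 changed per day past the threshold, where 2.1% of genes did. Dusp1, Dusp4, Dusp5 and Dusp10 passed, all upward, once the doubted Dppa2/4 library of day 4 was left out (0.17, 0.11, 0.13 and 0.10 per day), where 19% of all genes passed. Dusp1 had 51.4, 39.5 (the doubted library), 40.3 and 187 FPKM with Dppa2/4 on days 2, 4, 8 and 14 and 26.1, 71.1, 53.9 and 176 FPKM in control.

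**Figure D4:**
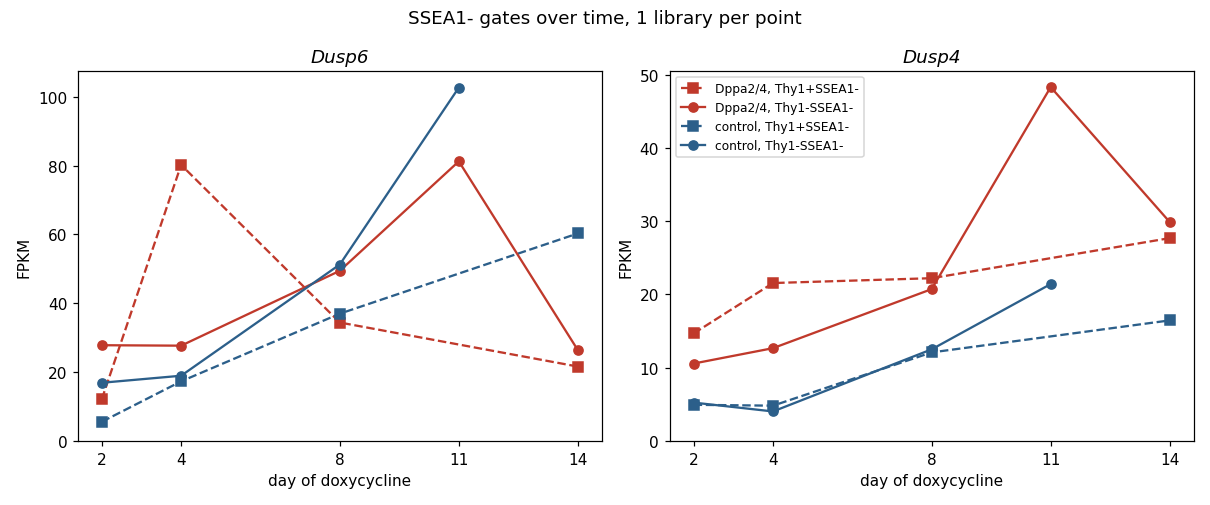
FPKM of Dusp6 (left) and Dusp4 (right) by day of doxycycline in the SSEA1- gates, 1 library per point, Dppa2/4 red and control blue, Thy1-SSEA1- with solid and Thy1+SSEA1- with dashed lines. Dusp6 reaches 81.3 FPKM (Dppa2/4) and 103 FPKM (control) on day 11 in Thy1-SSEA1- cells and 80.2 FPKM in the doubted Dppa2/4 Thy1+SSEA1- library of day 4, and each Dppa2/4 point of Dusp4 lies above the control point of its day and gate.

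On day 14 the genes did not move as one. Dusp1 and Dusp10 were at their highest on day 14 in all 7 series of an arm and gate that reach that day, as were 5.54% of 17104 genes. Dusp1 had 187 FPKM in Dppa2/4 and 176 FPKM in control Thy1+SSEA1- cells on that day, 124 FPKM in Dppa2/4 Thy1-SSEA1- cells, 88.8 FPKM in Dppa2/4 and 65.4 FPKM in control Thy1-SSEA1+ cells, and 34.1 FPKM in Dppa2/4 and 41.0 FPKM in control GFP+ cells. Dusp6 and Spry2 were instead at their lowest on day 14 in 5 of the 7 series, Spry4 and Spred1 in 4 and Dusp7 in 3. Dusp5 and Spry1 were at their highest on that day in 4 series and Dusp4 in 3. How many of all genes were lowest or highest in as many series was not counted, so nothing is read from these numbers. These counts carry no test, and the day 14 libraries share their day.

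Across the 30 OSKM libraries Dusp6 and Spry4 went together most closely (Pearson's r of log2(FPKM + 1) = 0.91, and 0.91 without the doubted day 4 library), followed by Dusp1 and Dusp10 (r = 0.78) and Dusp5 and Dusp10 (r = 0.69). Dusp7 went against Spry2 (r = -0.66) and Spry4 (r = -0.57), and Dusp1 against Spry4 (r = -0.44). The libraries share gates, days and arms, so these values describe this set and carry no p. Of 10307 genes with a mean of at least 5 FPKM, those most like Dusp6 were Spry4, Etv1 (r = 0.84), an ETS transcription factor gene of the ERK-responsive list, and Ankrd6 (r = 0.74). Those most like Spry4 were Dusp6, F2rl1 (r = 0.85) and Sox13 (r = 0.83), and those most like Dusp1 were Slc12a4 (r = 0.89), Cyb5d2 (r = 0.88) and Acvrl1 (r = 0.88).

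**Figure D5:**
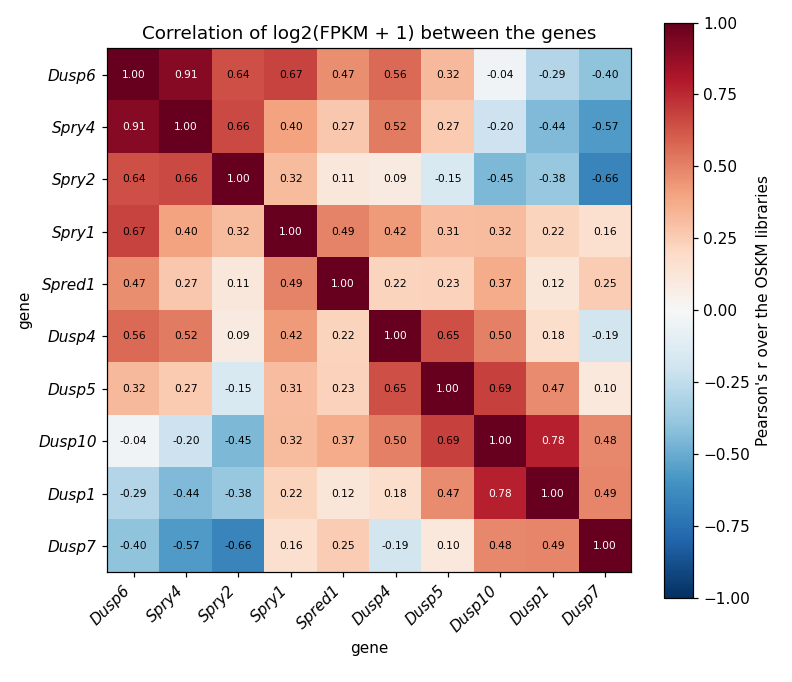
Pearson's r of log2(FPKM + 1) between each pair of the 10 genes over the 30 OSKM libraries, from -1 (blue) to 1 (red). The genes are drawn in an order set by hand, and the highest value off the diagonal is that of Dusp6 and Spry4 (0.91).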

How the data were processed

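Per the submitters' processing notes, TopHat2, Cuffdiff and the build mm10 were used; versions, annotation and strand setting are not given in the sources used here. The deposited table gives the authors' FPKM per gene, with no read counts, and 32 of its 33 value columns were used. The remaining column (Dppa2/4, day 11, Thy1+SSEA1-) matched no sample, and the 2 columns naming only arm and day 2 were given to the rtTA-MEF pair by elimination. Depth was implied from the most frequent low value of FPKM times transcript length in genes with a single transcript. That value was taken to be a single fragment and was read from a binned count, so the depths are approximate.

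The fits used log2(FPKM + 1) of genes with at least 1 FPKM in at least 2 libraries. Differences were fitted across all genes with limma 3.58.1 (R 4.3.3, eBayes with a trend), two-sided, adjusted by Benjamini-Hochberg, threshold 0.05, with day and gate, or arm and day, as a block, and the arm as a term for changes per day. A difference on the log2(FPKM + 1) scale understates the change of low genes. The fits were also run on simulated data with independent noise and no effect of day or gate. Such data cannot show how the fits behave on these libraries. Coordinates and promoters are GRCm38. The 10 genes and the lists were chosen with earlier results of these data known. Named pathway genes are up to 3 per list and comparison of largest absolute change among those called, and like genes the 3 highest correlations. One gene that this rule names is not reported here. Alternatives were a pseudocount of 0.1, other filters, quantile normalization, no block and leaving out each unit. The counts for day 14, the shares called in reduced fits and the correlations without the day 4 library were added after values were seen.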

Additional observations from a re-analysis of the deposited data

Results flagged for a closer look

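The difference of Dusp4 between the arms ran in opposite directions between gates. It was positive in every stratum of Thy1+SSEA1- cells (4 strata), Thy1-SSEA1- cells (4) and Thy1-SSEA1+ cells (3) and negative in both GFP+ strata, and the median of each gate exceeded that of GFP+ cells by 1.52, 1.42 and 1.15 on the log2 scale, in that order. One of the Thy1+SSEA1- strata holds the Dppa2/4 library of day 4 with Dppa2 at 0.354 FPKM; without it 3 of 3 strata were positive and the gap was 1.23. Dppa2 was alike in both arms of the GFP+ strata, with 61.55 and 53.97 FPKM in the Dppa2/4 libraries of days 11 and 14 and 66.09 and 45.45 FPKM in control. The GFP+ strata therefore held little contrast in Dppa2 RNA. Dusp7 was higher with Dppa2/4 in 4 of 4 Thy1-SSEA1- strata (0.04 to 0.54) and lower in both GFP+ strata (-0.53 to -0.09), with medians 0.51 apart. Both genes came from a search of the 10 genes for gates whose strata all went opposite ways. The unanimous counts are therefore the rule of the search and lend no support. These differences between single gates were not tested.

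The Dppa2/4 effect in the SSEA1+ and GFP+ gates exceeded that in the SSEA1- gates for 4 other pathway genes, by the test of the difference itself (limma). That is 4.04% of the 99 tested, where 1.02% of all genes passed in either direction. The lists were chosen with earlier results of these data known, so nothing is read from this count. For Fos, an ERK-responsive gene, the difference was 1.75 ± 0.27 (adjusted p = 0.0195): Fos was higher with Dppa2/4 in 5 of 5 SSEA1+ and GFP+ strata, with 62.0 FPKM in Dppa2/4 and 34.3 FPKM in control cells, and in 0 of 8 SSEA1- strata, with 65.4 FPKM in Dppa2/4 and 115 FPKM in control cells. For Egr1, another such gene, the difference was 1.16 ± 0.23 (adjusted p = 0.0387), with 3 of 5 and 0 of 8 strata higher. For the adaptor gene Gab1 it was 0.79 ± 0.13 (adjusted p = 0.0217), with 5 of 5 and 0 of 8 strata higher. For Sos2 it was 0.67 ± 0.15 (adjusted p = 0.0498), with 5 of 5 and 5 of 8 strata higher. The number of pathway genes called for this difference was 1 to 7 when 1 stratum was left out, and all 4 kept their call without the stratum of the day 4 library named above (0.69 to 1.80 on the log2 scale).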

How the results depend on the processing

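With 1 library per arm, day and gate, the spread between replicates was not measured, and the table held no read counts. Over 90 results of single feedback genes, 1250 of 1301 alternatives were counted as unchanged, 42 lost the call, 9 gained one and 0 called results reversed. A result not called counted as unchanged while it stayed uncalled, whatever its direction. Most of the 90 results were not called, so these counts are no measure of how stable the calls are. Replicate numbers could not pair the libraries, because all of them are 1. Day and gate, or arm and day, paired the libraries instead. The filter of a mean FPKM of at least 5 leaves Dusp10 and other low genes untested, so the call of Dusp10 drops out of the counts there. The cause of the other changes below was not tested.

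Feedback genes called between the arms numbered 3, and 0 with no block (3 when 1 stratum was left out). In the SSEA1- gates 2 became 1 with a mean FPKM of at least 5 and 1 with no block (2 to 3 leaving 1 out). In the SSEA1+ and GFP+ gates 2 became 1 with a mean of at least 5, 1 with quantile normalization and 0 with no block (0 to 2 leaving 1 out). For Thy1-SSEA1+ against Thy1-SSEA1- cells 2 became 0 with no filter, 1 with a mean of at least 5 and 0 with no block (0 to 2). For GFP+ against Thy1-SSEA1+ cells 8 became 5 to 7 leaving 1 pair out, 5 without the Dppa2/4 pair of day 11. For the change per day, 0 became 2 with a mean of at least 5 in Thy1+SSEA1- cells (0 to 4 leaving 1 library out), and 1 became 0 with no filter or no arm term in Thy1-SSEA1- cells (0 to 3).

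Other pathway genes called between the arms numbered 26, and 16 with a mean of at least 5 and 6 with no block (18 to 25 leaving 1 out). In the SSEA1- gates 20 became 12 and 5 (13 to 23), and in the SSEA1+ and GFP+ gates 14 became 0 with no block (2 to 18; 2 without day 11 Thy1-SSEA1+, 4 without day 14 Thy1-SSEA1+). With every stratum kept, the 20 and 14 were 20.2% and 14.1% of 99 tested, where 14.5% and 16.1% of all genes passed. For the difference between these gates 4 became 0 with no block (1 to 7). For Thy1-SSEA1- against Thy1+SSEA1- cells 0 became 1 with a pseudocount of 0.1 and 1 with no block. For Thy1-SSEA1+ against Thy1-SSEA1- cells 29 became 9 with no block (22 to 31). For GFP+ against Thy1-SSEA1+ cells 54 became 34 with a mean of at least 5 and 35 with no block (41 to 53). For the change per day 4 became 0 with no filter and 7 with a mean of at least 5 in Thy1+SSEA1- cells (0 to 22, with 22 without the Dppa2/4 library of day 4 and 0 without any other), and 3 became 1 and 1 in Thy1-SSEA1- cells (1 to 3). In the fit with 22 called, 19% of all genes passed, against 2.1% with all libraries, so nothing is read from the 22.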
